A study of Mus musculus with 6 samples.

Results

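Wnt ligands, their receptors and their secreted antagonists were examined in RPE/choroid, the retinal pigment epithelium (RPE) together with the vascular layer behind it. The genes were taken by symbol from the deposited gene table. They were the numbered Wnt, Fzd, Sfrp, Dkk, Rspo and Lgr genes, with Frzb, Wif1, Lrp5, Lrp6, Notum, Axin2, Lef1, Tcf7, Porcn, Ror1, Ror2 and Ryk. This rule found 56 of the 33924 genes listed, and the 48 genes whose normalized count averaged at least 10 are described. The lowest gene inside that limit was Wnt3a at 13.0, and the highest gene outside it was Wnt8b at 4.44.

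The libraries came from wild-type C57BL/6J mice of 2 ages, with 3 young and 3 aged mice, and no genetic change or treatment was applied. The labels put the young mice at 1 to 2 months. For the aged mice the titles give 20 to 24 months and the age field 22 to 24 months. The labels call all mice male, while the methods of the study describe both sexes and a slightly different age for the young mice. Each library held both eyes of a mouse. The labels name poly(A) RNA as the material, and their protocol text describes removal of ribosomal RNA with a stranded total RNA kit.

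The value used throughout is the authors' mean normalized count of a gene, averaged over the libraries of both ages. It holds no value for a single mouse, so no SD and no difference between young and aged RPE/choroid can be given, and a gene that differs with age enters with its average. Levels of different genes were compared after division by the length of the longest annotated transcript, which gives a mean normalized count per kb. Marker genes of cell types are given by their mean alone. The methods state that the authors quantified transcripts as TPM, a unit already scaled by transcript length, and transformed them into normalized counts. The means rise with transcript length, as read counts do, but had they kept the scaling of TPM, the division here would correct for length a second time and the order by mean would apply, so each gene is given with both values. The lowest means lie between 0.157 and 0.174 and were taken as 1 read in 1 library. On that reading a mean of 10 stands for about 60 reads over the 6 libraries. Had the authors rounded rescaled TPM values, a step would not be 1 read, and the intervals below would not measure counting error. Intervals given below are exact Poisson intervals at the 95% level from the number of reads so estimated. They cover counting error only, not the spread between mice.

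Wnt proteins are secreted glycoproteins that carry a lipid added by the acyltransferase Porcn and are brought to the cell surface by Wls. In the canonical pathway a Wnt binds a Frizzled receptor (Fzd) and the co-receptor Lrp5 or Lrp6, beta-catenin escapes breakdown, and it activates transcription with factors of the Tcf/Lef group. Other Wnts act through Ror1, Ror2 or Ryk without beta-catenin. Secreted antagonists such as the Sfrp proteins bind the ligand, others such as Dkk1 bind the co-receptor, and R-spondins acting through Lgr receptors keep Frizzled receptors at the surface. In the eye the pathway is known for its part in the formation of the RPE and of the ocular vessels.

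The tissue was checked against marker genes. Of 9 RPE markers 8 had a mean of at least 1000, among them Rpe65, the visual cycle isomerase, at 113930 and Ttr, the thyroid hormone carrier transthyretin, at 397586. Best1, an anion channel of the RPE, stood apart at 81.8. Markers of other cells were present in the same libraries. The 4 rod photoreceptor markers lay between 16944 and 139449, the 3 skeletal muscle markers between 35123 and 48944, the 5 stromal markers between 5456 and 84651, the 5 endothelial markers between 717 and 7369, and the 4 macrophage markers between 3067 and 13165. The 5 pigment cell markers lay between 25408 and 256984, the 4 markers of pericytes and smooth muscle between 4044 and 45231, the 3 cone markers between 645 and 2558, and the 3 markers of Müller glia between 1500 and 73484. The 3 Schwann cell markers lay between 608 and 4803, the 3 lens markers between 2084 and 8327, and the 2 red cell markers found in the table between 1591 and 37845. The share that each cell type contributed to a Wnt gene was not tested. In these bulk libraries fewer cells of a type and less RNA per cell cannot be told apart.

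Dkk3 was by far the most abundant of the 48 genes. Its mean normalized count of 43009 was 0.105% of all counts, while the 56 genes together held 0.212%. Dkk3 alone held 55.2% of the summed level per kb of the 48 genes. The median gene of the 48 had a mean of 446 and a level of 117 per kb, against 668 and 215 per kb over all genes that reached the same limit of 10. A level above that median of 215 per kb was found for 14 of the 48 genes, or 29.2%. These were 6 secreted antagonists, 5 receptors, 2 ligands and 1 gene of the R-spondin and Lgr group.

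**Figure D1:**
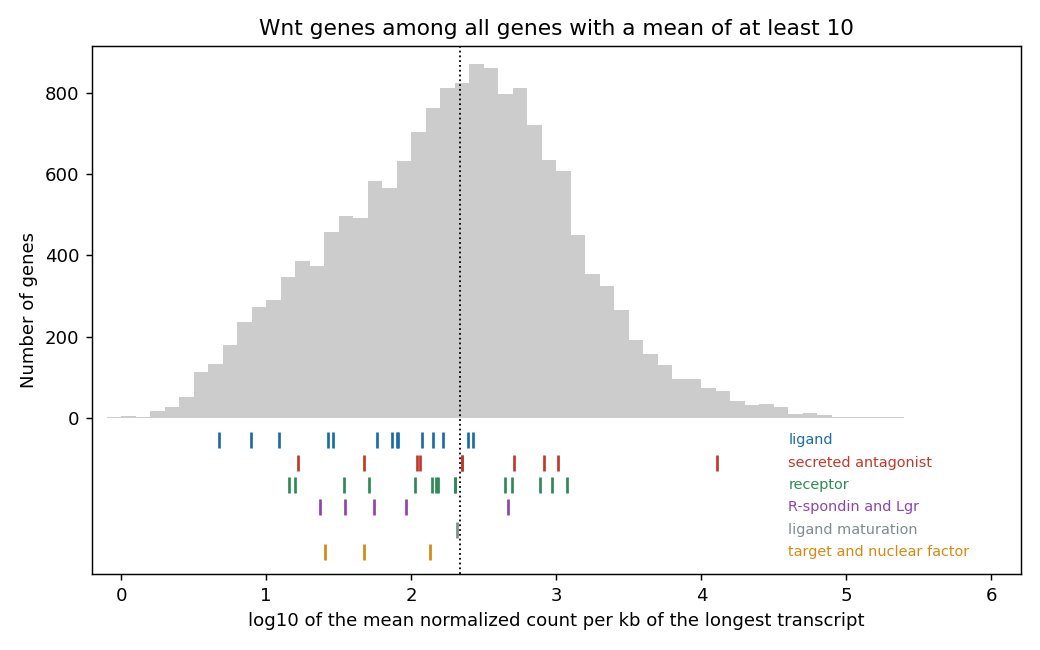
Grey bars count all genes that reached a mean of 10 and have an annotated length, by the log10 of the mean per kb of the longest transcript, and the dotted line is their median. Coloured ticks mark the 48 Wnt genes by role, with Dkk3 as the antagonist far to the right and 2 of the 14 ligands past the median.

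By role, the 10 secreted antagonists held 68.6% of the summed level per kb, the 15 receptors and co-receptors 21.1%, and the 14 ligands 5.65%. The 5 genes of the R-spondin and Lgr group held 2.87%, and Porcn and the 3 targets and nuclear factors 0.894% and 0.893%. The summed level of the antagonists was 12.1 times that of the ligands. This order rested on Dkk3, which was counted as an antagonist by its family, as were Dkk1 and Dkk2. Without Dkk3 the antagonists held 29.9% and the receptors 47.1%, and the antagonists summed to 2.37 times the ligands.

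**Figure D2:**
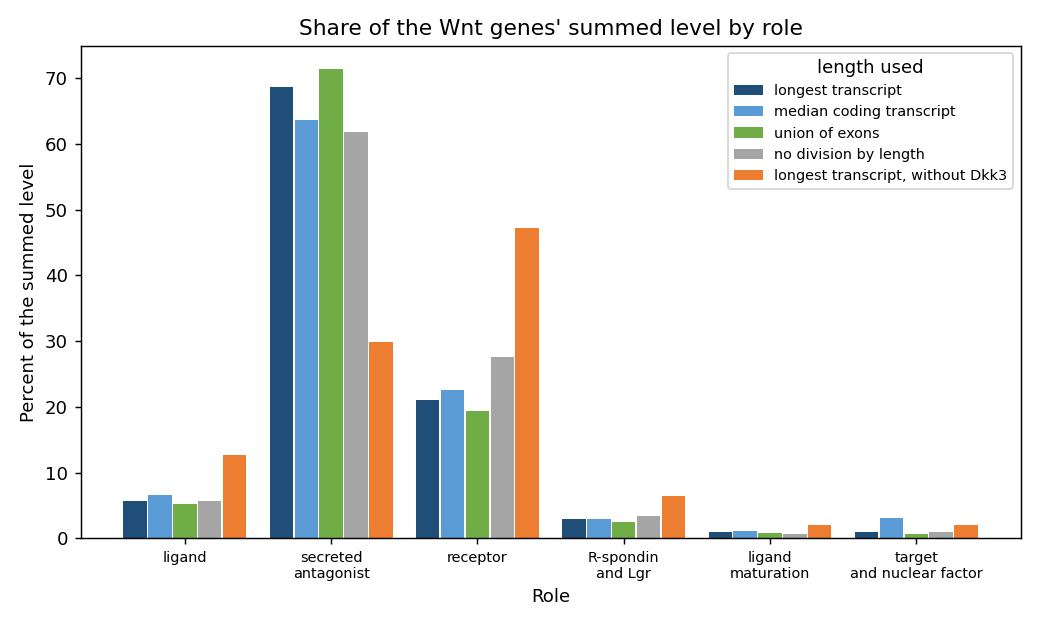
Bars give the percent of the summed level of the Wnt genes held by each role, with each of 4 ways of handling transcript length and once without Dkk3. Secreted antagonists hold between 61.8% and 71.3% with Dkk3 and 29.9% without it, where receptors hold 47.1%.

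Among the ligands, Wnt5a led. Wnt5a, which mostly signals without beta-catenin (ENSMUSG00000021994, plus strand of chromosome 14 of GRCm38 from 28504750 to 28527448), averaged 1864 normalized counts, which is a level of 266 per kb. Its close relative Wnt5b, with a mean of 584, reached 246 per kb, so the 2 genes differed 1.08 times per kb and 3.19 times in counts. They held 20.3% and 18.8% of the summed ligand level.

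Behind them came Wnt9a with a mean of 546 and 164 per kb, and Wnt16 with a mean of 466 and 142 per kb. With the median length of its coding transcripts Wnt16 reached 329 per kb, above Wnt5b at 259 and next to Wnt5a at 350. Wnt2b, a ligand known from the margin of the developing RPE, had a mean of 390 and 118 per kb. With the longest transcript no other ligand passed 100 per kb, while Wnt11 reached 142 per kb with the median coding length. Wnt6 had a mean of 169 and 81.5 per kb, Wnt2 a mean of 180 and 79.9 per kb, and Wnt11, a ligand of cell movement, a mean of 254 and 73.5 per kb. The counting intervals per kb of Wnt6 and Wnt2 overlapped, as did those of Wnt2 and Wnt11. The order of neighbours within these 3 ligands per kb is therefore not set. By mean, Wnt11 (interval 241 to 267) lay above Wnt2 (interval 170 to 191), so the place of Wnt11 depends on the length used.

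Wnt4 followed with a mean of 242 and 57.8 per kb. Wnt10a had a mean of 71.7 and 29.0 per kb, and Wnt7b, known from macrophages that clear the fetal vessels of the eye, a mean of 90.7 and 26.7 per kb, again with overlapping intervals. The lowest ligands described were Wnt10b with a mean of 33.4 and 12.3 per kb, Wnt9b with a mean of 35.3 and 7.81 per kb, and Wnt3a with a mean of 13.0 (interval 10.3 to 16.2) and 4.71 per kb. Wnt5a thus exceeded Wnt3a, a standard activator of beta-catenin signaling, 56.5 times per kb.

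Of the 19 ligand genes, 5 stayed under a mean of 10. Wnt1 had no read, which allows a mean of up to 0.499 if 3 reads are taken as the limit that a count of 0 allows. Wnt8a, Wnt7a, Wnt3 and Wnt8b lay between 0.651 and 4.44, or about 4 to 27 reads over the 6 libraries.

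**Figure D3:**
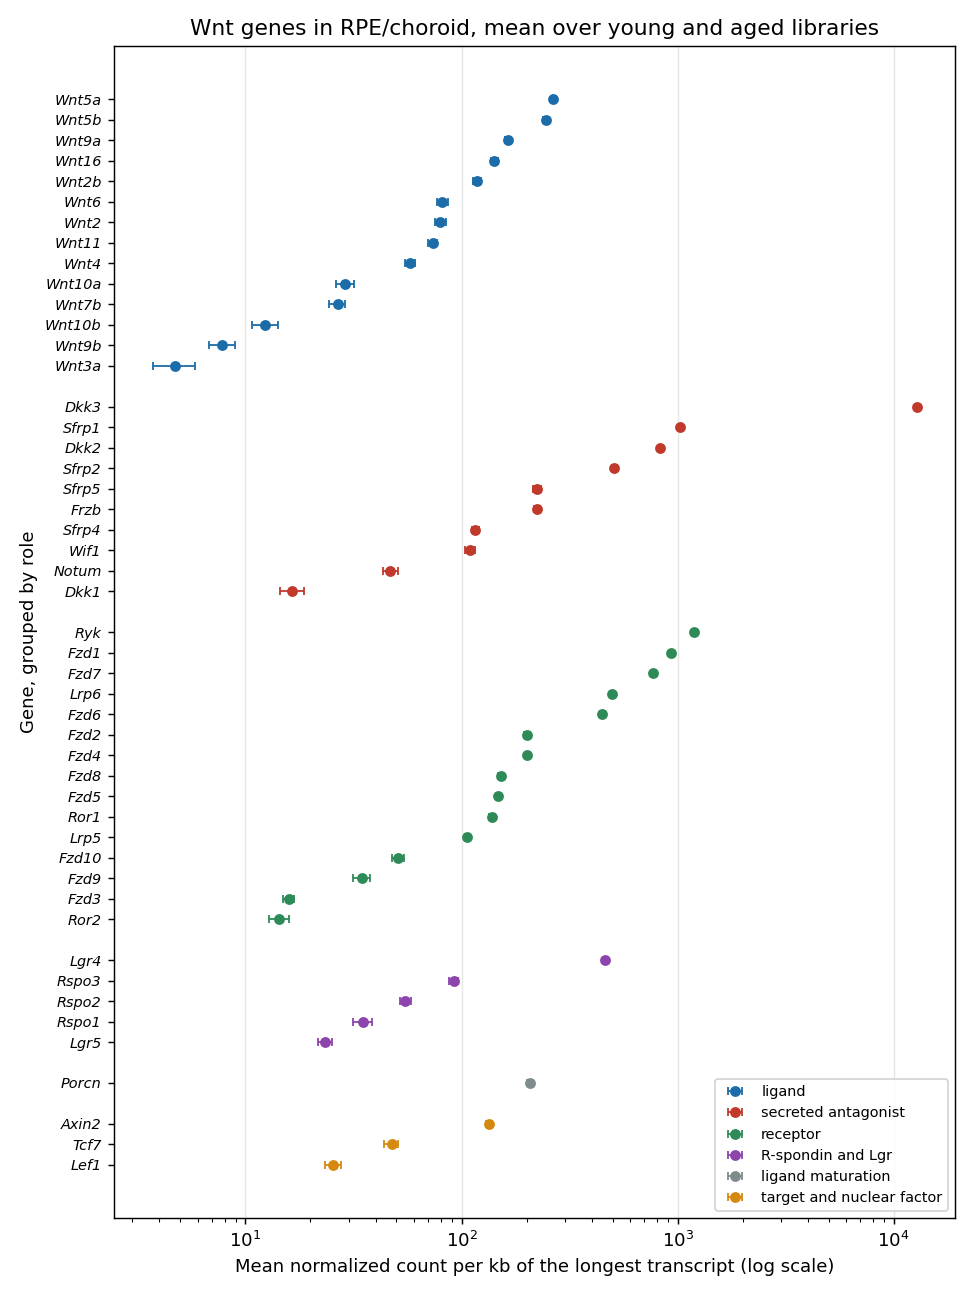
Points give the mean normalized count per kb of the longest transcript (log axis) for each of the 48 Wnt genes, grouped by role and ordered within it, and bars are 95% Poisson intervals for counting error. Dkk3 stands at 12804 per kb, above the next gene, Ryk, at 1190, and the lowest ligand, Wnt3a, lies at 4.71.

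The secreted antagonists spanned the widest range, 777 times from Dkk3 to Dkk1. Dkk3 (ENSMUSG00000030772, minus strand of chromosome 7 from 112116017 to 112159057) reached 12804 per kb. It is a divergent member of the Dickkopf family whose action on Wnt signaling is less settled than that of Dkk1. Its level was 12.4 times that of the next antagonist, Sfrp1.

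The secreted Frizzled-related proteins bind Wnts with a domain like that of the receptors. Sfrp1 (ENSMUSG00000031548, plus strand of chromosome 8 from 23411502 to 23449632) had a mean of 4507 and 1031 per kb. Sfrp2 followed with a mean of 1019 and 509 per kb. Sfrp5 with a mean of 425 and its relative Frzb with a mean of 702 were level at 223 per kb each. Sfrp4 had a mean of 468 and 116 per kb, the lowest of this family with the longest transcript. With the median coding length it reached 319 per kb, above Sfrp5 and Frzb, and by mean count Sfrp5 was the lowest. All 4 Sfrp genes were thus above 100 per kb, as was Frzb.

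Dkk2 and Dkk1 bind Lrp5 and Lrp6. Dkk2 had a mean of 3069 and 828 per kb, whereas Dkk1, a classical inhibitor of the co-receptors, had a mean of 40.0 (interval 35.0 to 45.3) and 16.5 per kb. Dkk2 therefore exceeded Dkk1 50.3 times per kb. Dkk4 had a mean of 0.169, the value of 1 read in 1 library, and was under the limit. Wif1, which binds Wnt ligands, had a mean of 251 and 110 per kb. Its interval overlapped that of Sfrp4. Notum, an esterase that removes the lipid from Wnts, had a mean of 104 and 46.9 per kb.

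The RefSeq promoter window of Dkk2, the third antagonist by level, is shown because it holds a TATA box word close to the start site, while the table of windows has no entry for Dkk3 or Sfrp1. The window runs from 250 bases before to 50 after the start, chr3:132085042-132085341 of GRCm38.p6, plus strand, with the word TATAAA in capitals, which begins 32 bases before the start.
Dkk2: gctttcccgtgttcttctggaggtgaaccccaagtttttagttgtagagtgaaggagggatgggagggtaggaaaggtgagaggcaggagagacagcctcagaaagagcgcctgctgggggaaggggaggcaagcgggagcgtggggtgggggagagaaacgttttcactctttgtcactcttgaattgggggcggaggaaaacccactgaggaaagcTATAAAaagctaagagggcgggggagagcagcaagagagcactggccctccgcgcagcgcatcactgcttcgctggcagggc
The word TATAAA, searched on both strands anywhere in the window, occurred in 8 of the 44 windows of 37 Wnt genes, or 18.2%, against 13.6% of all 32851 windows.

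All 15 receptors and co-receptors passed the limit. Ryk, a receptor with an inactive kinase domain (ENSMUSG00000032547, plus strand of chromosome 9 from 102834917 to 102908305), was the highest at 1190 per kb with a mean of 3656. With the union of exons as length Fzd1 was above it, at 933 against 806 per kb, and Lrp6 had the highest mean count. Fzd1 and Fzd7, close relatives of each other, came next. Fzd1 had a mean of 3914 and 933 per kb, and Fzd7 a mean of 3489 and 770 per kb. Fzd2, the third member of that subgroup, had a mean of 737 and 201 per kb.

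Fzd6 had a mean of 1925 and 445 per kb. Fzd4, the receptor for Norrin in vessel growth, had a mean of 1349 and 201 per kb, with an interval that overlapped that of Fzd2. Fzd8 with a mean of 910 and Fzd5, a receptor of early eye development, with a mean of 1023 also had overlapping intervals, at 152 and 148 per kb. The least abundant Frizzled receptors were Fzd10, Fzd9 and Fzd3. Fzd10 had a mean of 166 and 51.1 per kb, Fzd9 a mean of 79.3 and 34.6 per kb, and Fzd3 a mean of 202 and 15.9 per kb. Fzd3 has a transcript of 12734 bases, so its place depends on the division by length: the ratio of Fzd1 to Fzd3 was 58.8 per kb and 19.4 in counts.

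Both co-receptors were present. Lrp6 had a mean of 4635 and 495 per kb, 4.67 times the level of Lrp5, which had a mean of 943 and 106 per kb. With the median coding length they reached 919 and 238 per kb. Of the Ror receptors, which bind Wnt5a, Ror1 had a mean of 797 and 138 per kb. Ror2 had a mean of 56.8 and 14.3 per kb, so Ror1 exceeded it 9.71 times, and the intervals of Ror2 and Fzd3 overlapped.

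In the R-spondin and Lgr group the receptor Lgr4 led with a mean of 2331 and 461 per kb. Lgr5, known as a marker of epithelial stem cells, had a mean of 112 and 23.3 per kb, so Lgr4 exceeded it 19.7 times. The level of Lgr5 was 42.2 per kb with the median coding length and 10.9 with the union of exons. Lgr6 stayed under the limit with a mean of 2.66. The ligands of these receptors were lower than Lgr4. Rspo3 had a mean of 284 and 92.2 per kb, Rspo2 a mean of 184 and 55.0 per kb, and Rspo1 a mean of 64.3 and 35.0 per kb. Rspo4 had a mean of 2.99 and was under the limit.

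Porcn had a mean of 544 and 207 per kb, which lies between the ligands Wnt5b and Wnt9a with the longest transcript. By mean it was next to Wnt9a at 546, and with the median coding length it reached 292 per kb, above Wnt5b at 259. Axin2, a target of beta-catenin that feeds back on the pathway, had a mean of 572 and 134 per kb. The transcription factors Tcf7 and Lef1 were lower. Tcf7 had a mean of 117 and 47.4 per kb and Lef1 a mean of 93.3 and 25.5 per kb, so Axin2 exceeded Lef1 5.26 times. With the median length of its coding transcripts, which is 826 bases, Axin2 would reach 692 per kb, so its place among the genes depends on which transcript is taken. With the union of exons Lef1 would fall to 10.6 per kb.

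Among the 42 pairs of neighbours in the order within a role, 8 had overlapping counting intervals per kb and the other 34 did not. The median coding length raised the level of 9 of the 48 genes over 1.5 times, namely Wnt16, Wnt11, Wnt10a, Sfrp4, Lrp5, Lrp6, Rspo3, Lgr5 and Axin2. The union of exons lowered that of Rspo2, Lgr5 and Lef1 as much. Orders of genes given here are those with the longest transcript. Of the 10 highest genes per kb, 9 were also among the 10 highest by mean count. Another annotated gene overlaps 20 of the 56 genes, mostly a noncoding gene on the other strand, and a protein-coding gene overlaps Wnt5b and Lgr5. Whether reads were counted by strand is not given in the sources used here, so reads of such partners could have entered these values.

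Several ligand genes lie next to each other in the genome, and their levels were set side by side. Within 100000 bases, 4 pairs were found, with no protein-coding gene between the partners of any pair. Wnt6 and Wnt10a on chromosome 1, 6193 bases apart on the same strand, reached 81.5 and 29.0 per kb. Wnt3a and Wnt9a on chromosome 11 are read away from each other from start sites 16176 bases apart, and they reached 4.71 and 164 per kb, a ratio of 34.9. Wnt9b and Wnt3, also on chromosome 11 and with start sites 24329 bases apart, reached 7.81 and 1.20 per kb, with a ratio of 6.53. On chromosome 15 Wnt10b reached 12.3 per kb, while Wnt1, with a start site 11707 bases away, had no read. The limit of 3 reads over the 6 libraries stands for 0.210 per kb of Wnt1. In each pair the partners differed by more than the counting error so estimated.

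**Figure D4:**
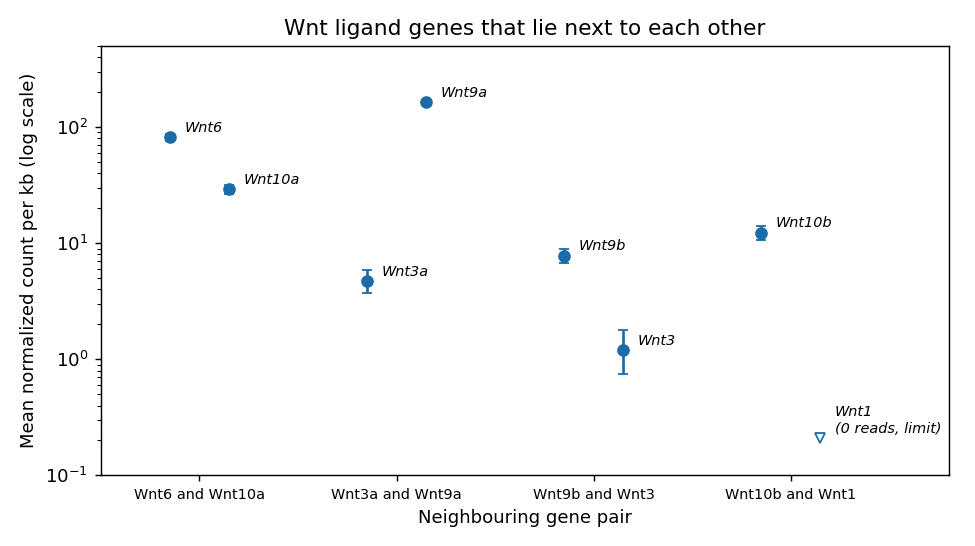
Points give the mean normalized count per kb of the longest transcript (log axis) for the 4 pairs of neighbouring Wnt ligand genes, with 95% Poisson intervals for counting error. The open triangle is the limit of 0.210 per kb that 0 reads allow for Wnt1, and Wnt9a lies 34.9 times above its neighbour Wnt3a.

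The promoter windows of Wnt3a and Wnt9a are shown because these neighbours had the largest ratio of the pairs in which both genes were read. They cover chr11:59290702-59291001 on the minus strand and chr11:59306680-59306979 on the plus strand of GRCm38.p6, each from 250 bases before to 50 after the start, 5′ to 3′, with CpG dinucleotides in capitals.
Wnt3a: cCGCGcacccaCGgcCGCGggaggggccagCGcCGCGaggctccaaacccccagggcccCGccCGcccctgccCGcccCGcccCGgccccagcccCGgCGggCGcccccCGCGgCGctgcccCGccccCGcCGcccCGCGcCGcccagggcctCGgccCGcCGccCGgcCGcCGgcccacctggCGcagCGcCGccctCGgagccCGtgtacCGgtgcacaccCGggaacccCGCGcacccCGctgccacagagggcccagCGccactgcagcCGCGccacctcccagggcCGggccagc
Wnt9a: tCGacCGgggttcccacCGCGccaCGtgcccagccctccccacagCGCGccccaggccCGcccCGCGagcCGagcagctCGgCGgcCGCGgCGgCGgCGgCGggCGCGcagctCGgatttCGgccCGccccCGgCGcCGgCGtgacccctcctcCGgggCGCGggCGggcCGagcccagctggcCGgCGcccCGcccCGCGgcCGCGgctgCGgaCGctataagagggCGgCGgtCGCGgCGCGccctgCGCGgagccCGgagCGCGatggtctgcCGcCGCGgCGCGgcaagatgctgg
Both windows are rich in CpG, with 45 in that of Wnt3a and 58 in that of Wnt9a, the latter the highest number among the Wnt genes. The median was 24.5 over the 44 windows of the Wnt genes and 7 over all windows. Windows of the 6 genes that had an entry and stayed under a mean of 10 held a median of 25 CpG, and windows of the genes above it 24.5. The words CTTTGAA and CTTTGAT, which match the binding site of Tcf/Lef factors, were searched on both strands. They occurred in 3 of the 44 windows, those of Dkk1, Wnt11 and Wnt5b, or 6.82%, against 8.65% of all windows, and not in the window of Axin2.

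Other genes of the pathway were taken from a list of 44, all of which were in the table and 43 of which had a mean of at least 10. The median level over all 44 was 144 per kb, against 117 per kb for the 48 Wnt genes, all of which had a mean of at least 10. Wls, the carrier of Wnt proteins, had a mean of 24049 and reached 6757 per kb, below Dkk3 and above every other gene of the 48. Among the 11 genes that control beta-catenin in the cytoplasm, Ctnnb1, which encodes beta-catenin, was the highest at 13687 per kb and Dvl3, a Dishevelled adaptor, the lowest at 8.12 per kb. Among 8 other extracellular modulators, Cthrc1 was the highest at 995 per kb and Kremen2, a partner of Dkk1, the lowest at 12.1 per kb. By mean Kremen1 was the highest of these, at 2213 against 1160 for Cthrc1. Among 5 surface and feedback genes, the Dishevelled-binding inhibitor Nkd2 was the highest at 416 per kb and Rnf43, which removes Frizzled receptors, the lowest at 33.0 per kb. Of 10 nuclear factors, Pygo2, a cofactor of beta-catenin, reached 440 per kb, and Tcf7l1 was the 1 gene under the limit, with a mean of 9.88 and 3.25 per kb. By mean Tle4 was the highest of the nuclear factors, at 1976 against 1407 for Pygo2. Of 9 planar polarity genes, Daam1 reached 479 per kb and Celsr1 5.01 per kb. The other highest and lowest genes of these groups kept their places by mean.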

How the data were processed

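The authors sequenced poly(A) RNA of RPE/choroid from 3 young and 3 aged mice. In the methods the authors trimmed reads with BBDuk, mapped them with STAR to GRCm38 transcripts, quantified TPM values with Sailfish, transformed these into normalized counts by total count and ran DESeq2. The deposited signal is the mean normalized count per gene over all libraries. Another 5 columns of the authors' table (fold change, its standard error, test statistic, p-value and adjusted p-value, young against aged) hold their own comparison and were not used, so no test of age was made. Depth per library is unknown. The deposited means sum to 40816668. All 1698 means at or under the level of 2 steps were sums of 1 or 2 single-step values within 5e-06, which gave size factors from 0.959 to 1.06. With a step taken as 1 read, these values convert a mean into reads.

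Gene positions and lengths came from GENCODE M21 (GRCm38), matched by symbol (all 56 members, and 89.0% of the 18479 genes with a mean of at least 10), with RefSeq synonyms for older symbols in the marker and pathway lists. The authors mapped to an Ensembl release of GRCm38, so the transcript lengths behind the counts may differ from these. Whether the means still scale with length was checked across genes, which are not independent replicates. Spearman's rho of mean and length was 0.20. Median means were 274 in the shortest and 1031 in the longest of 5 equal length classes. These values do not decide whether the scaling of TPM was kept. Promoters came from RefSeq GRCm38.p6. Python 3.11.15, numpy 2.4.6, pandas 2.3.3, scipy 1.17.1 and matplotlib 3.10.9 were used. The recovery of size factors was tested on simulated data, and the union of exons and the symbol rule on small examples. The members and lists were chosen with earlier results of these data known. Every member with a mean of at least 10 is named with its mean, and of each pathway group the most and least abundant gene per kb. The TATAAA, CpG and Tcf/Lef words and the promoters shown were chosen after seeing the values. Alternatives were other thresholds, other lengths, no division by length, and the set without Dkk3.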

Additional observations from a re-analysis of the deposited data

How the results depend on the processing

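No paired analysis was possible because single libraries have no values of their own here, and leaving out each replicate was not run for the same reason. With a limit of 1, 5 or 50 on the mean, 53, 48 or 44 genes would be described in place of 48. The median Wnt gene lay at percentile 42.3 of the genes with a mean of at least 10, and at percentile 51.7 when all genes with a mean above 0 were used on both sides. The share of the secreted antagonists was 63.7% with the median length of coding transcripts, 71.3% with the union of exons, 61.8% with no division by length and 29.9% without Dkk3. The ratio of antagonists to ligands was 9.56, 13.6, 10.9 and 2.37 in the same order. It was 12.1 with all genes above a mean of 0. In each of these settings the antagonists summed to more than the ligands. Depth limits the statements on genes of a few reads, and the spread between mice cannot be seen.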
